A study of Saccharomyces cerevisiae with 7 samples.

Results

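Transcript levels of the genes for hexose uptake, glycolysis and ethanol fermentation were followed in budding yeast, Saccharomyces cerevisiae, that carried temperature-sensitive alleles of SCC2 or STH1. The set was chosen by gene name and lists 43 genes, of which 40 were named by a probe set and are described here, among 5449 measured genes in all. They comprise 26 of 27 listed enzymes and 14 of 16 listed hexose transporters and glucose sensors. TDH2, HXT6 and HXT16 were not analysed here. Where several probe sets read 1 gene, the brightest was taken.

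RNA was measured on 7 one-colour Affymetrix arrays, with 2 arrays each for scc2-4, sth1-3 and wild type cells at 37C and 1 array for wild type cells at 25C. The medium was rich and held 2% glucose, and cultures at an optical density (OD600) of 0.25 went to 37C for 2 h. The protocol text of the wild type 25C sample describes this shift too, and only the sample's title, source name and description give 25C. Scc2 belongs to the loader that places cohesin on chromosomes. Sth1 drives the chromatin remodeller RSC as its ATPase. The scc2-4 strain (Y4251) was MATa and also carried Scc1-Pk9::TRP1 together with Sth1-9myc::URA3. The sth1-3 strain (Y4343) was MATα and also carried Scc2-Pk9::TRP1, and its allele is written sth1-3ts in the labels. The wild type strain (YK700), used at 37C and at 25C, was MATa, GAL and psi+, with the marker alleles ade2-1, trp1-1, can1-100, ura3-52, leu2-3, 112 and his3-11,15. These marker alleles are not listed for either mutant. Each mutant was represented by 1 strain, and the mutants carried epitope tags that the wild type did not. Whether the replicates were separate cultures is not stated in the labels. The p-values cover the spread between these arrays only, and that spread may be technical.

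Glucose enters yeast cells through the Hxt family of membrane carriers, whose genes are switched on by the glucose sensors Snf3 and Rgt2. Inside the cell it is phosphorylated by hexokinases and broken down to pyruvate by glycolysis, a chain of abundant enzymes whose genes are activated together by Gcr1 and Rap1. In rich glucose medium most pyruvate is then turned into ethanol by pyruvate decarboxylase and alcohol dehydrogenase, which returns the cofactor that glycolysis needs.

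All values are log2 intensities after RMA (robust multi-array averaging), 1 per probe set and array, so that a difference of 1 is a doubling of signal. Levels of different genes come from different probes and are not compared with each other. Per the labels, double-stranded DNA was labelled, so sense and antisense transcripts cannot be told apart. A gene was taken as above background on an array where it exceeded the 95th percentile of the probe sets for the fission yeast Schizosaccharomyces pombe, which lay at 9.94 to 10.07. Between 8.06% and 12.9% of all genes did so. Where no array of a group lay above it, a fold change against that group is given only as a bound. The arrays fell into 2 sets by their bacterial hybridisation controls. These averaged 12.3 to 12.5 on replicate 1 of scc2-4, replicate 1 of sth1-3 and the wild type 25C array, called the 3-array set. They averaged 11.5 to 11.7 on replicate 2 of scc2-4, replicate 2 of sth1-3 and both wild type 37C arrays, called the 4-array set. Across all genes, which are not independent replicates, the wild type 25C array correlated at 0.897 with replicate 1 of scc2-4 and at 0.917 with replicate 1 of sth1-3. Replicate 1 correlated with replicate 2 at 0.791 in scc2-4 and 0.757 in sth1-3. This measure did not separate the sets fully. Replicate 1 of scc2-4 correlated at 0.853 with replicate 1 of sth1-3 and at 0.864 with replicate 2 of sth1-3, which lies in the other set. Within its own set, replicate 2 of sth1-3 correlated at 0.883 to 0.955. The labels do not say whether the sets were processed apart, and whether the labels of these arrays are right was not tested, which bears on every replicate 1 value. For 25S ribosomal RNA the difference between its 3' and 5' probe sets was 3.03 to 4.16 on the 3-array set's arrays, and 0.30 to 0.69 on those of the 4-array set. For ACT1, an mRNA, the difference tended the other way, with overlap. It was -0.31 to 0.32 on the 3-array set and 0.21 to 1.596 on the 4-array set. The 5' set of ACT1 measured 10.45 to 10.53 on the 3-array set and 8.09 to 9.14 on the 4-array set. On the 4-array set the 3' and 5' sets of ACT1 were below background. The cause of these differences was not tested. No a-specific mating gene (0 of 7) was above background on any array, and 1 of 6 alpha-specific genes was, on a single array. This gene, HMLALPHA1, measured 10.27 on replicate 1 of sth1-3, the MATα strain, 8.41 on its replicate 2 and 8.19 to 9.07 on the other arrays. With a signal on only 1 of the sth1-3 arrays, these genes did not check the strain labels. The log2 of the summed level was 11.20 to 11.57 for the a-specific and 10.90 to 11.77 for the alpha-specific genes over all arrays. The alpha-specific sum was highest on sth1-3 replicate 1 (11.77) and was 11.26 on sth1-3 replicate 2.

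Most enzyme genes of glycolysis separated the arrays by set. Both wild type 37C arrays belong to the 4-array set, so in their case strain and set cannot be told apart. In these bulk cultures, fewer cells with a transcript and less of it per cell cannot be told apart. In 18 of 26 enzymes every array of the 3-array set lay above every array of the 4-array set, against 21.6% of all genes. In 1 enzyme, PDC6, every array of the 3-array set lay below, against 14.0% of all genes. The number of enzymes above background on all arrays of the 3-array set and on none of the 4-array set was 11, against 2.4% of all genes. They were PFK2, FBA1, TPI1, TDH1, PGK1, GPM1, ENO1, CDC19, PDC1, PDC5 and ADH1.

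Among the hexose kinases, HXK2, the main hexokinase of glucose-grown cells, measured 9.88 and 7.88 on the scc2-4 arrays, 10.08 and 8.40 on those of sth1-3, 7.77 and 8.60 in the 37C wild type and 10.11 at 25C. Replicate 1 was the higher array in either mutant, and it lay above both wild type 37C arrays. GLK1, the glucokinase, did not follow the sets, with 10.08 and 10.26 in scc2-4, 9.64 and 10.48 in sth1-3, 10.22 and 8.46 in the 37C wild type and 9.77 at 25C. Its wild type 37C arrays differed by 1.76, the widest gap between them among all members. HXK1, the other hexokinase, was not above background on any array (8.54 to 9.56).

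In upper glycolysis, FBA1, the aldolase, measured 11.50 and 9.30 in scc2-4, 11.46 and 9.45 in sth1-3, 9.53 and 8.03 in the 37C wild type and 11.12 at 25C. The wild type 37C arrays of FBA1 were 1.51 apart. TPI1, triosephosphate isomerase, measured 10.86 and 9.36 in scc2-4, 10.66 and 9.79 in sth1-3, 8.89 and 9.25 in the 37C wild type and 10.75 at 25C, and here both arrays of either mutant exceeded both wild type 37C arrays. PFK2, the beta subunit of phosphofructokinase, reached 11.12 on sth1-3 replicate 1 and 10.84 at 25C, against 9.23 to 10.08 on the other 5 arrays. PFK1, the alpha subunit of the same enzyme, was not above background (8.28 to 9.27), and its 3-array set mean was lower than its 4-array set mean by 0.26. The isomerase gene PGI1 was not above background either (8.06 to 9.47).

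In lower glycolysis, TDH3, the main glyceraldehyde-3-phosphate dehydrogenase gene (YGR192C), was the only enzyme above background on all 7 arrays. It measured 12.43 and 10.41 in scc2-4, 12.50 and 10.69 in sth1-3, 10.23 and 10.28 in the 37C wild type and 12.18 at 25C. ENO2, the enolase gene induced by glucose (YHR174W), measured 12.30 and 10.24 in scc2-4, 12.13 and 10.75 in sth1-3, 9.98 and 10.05 in the 37C wild type and 11.82 at 25C. The wild type 37C arrays differed by 0.056 for TDH3 and 0.067 for ENO2, and all 4 mutant arrays lay above them. ENO1, the other enolase gene (YGR254W), measured 11.15 and 8.86 in scc2-4, 11.03 and 9.39 in sth1-3, 8.55 and 7.90 in the 37C wild type and 10.63 at 25C. PGK1, phosphoglycerate kinase, GPM1, phosphoglycerate mutase, and CDC19, the main pyruvate kinase, had the same split, with 11.02 to 11.41 on the 3-array set and 9.00 to 9.74 on the 4-array set. PYK2, a pyruvate kinase gene repressed by glucose, was not above background (8.73 to 9.21) and its sets overlapped.

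**Figure D1:**
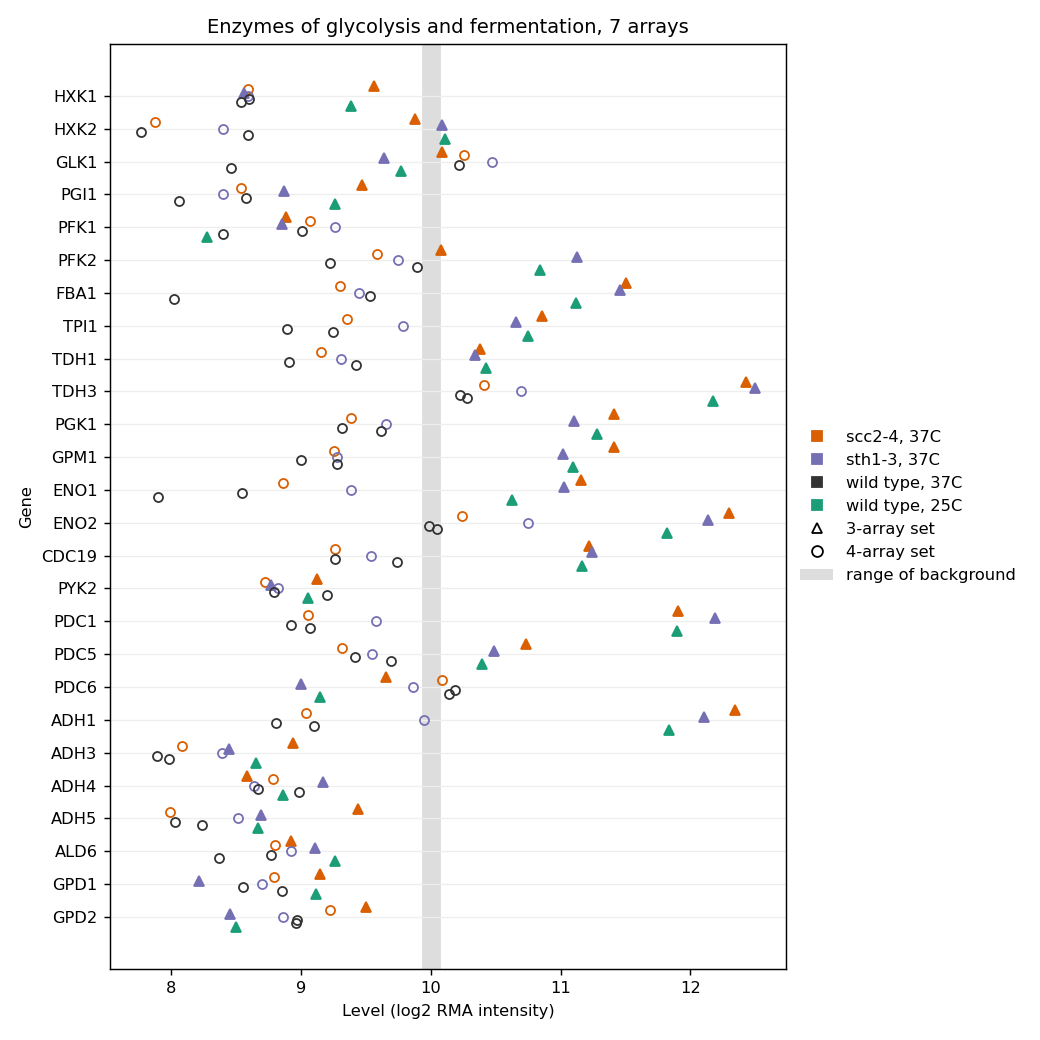
Levels of the 26 enzyme genes, 1 row per gene, as log2 RMA intensity on the horizontal axis. Each point is 1 array, coloured by strain and temperature, with filled triangles for the 3-array set and open circles for the 4-array set, and the grey band is the range of the background over arrays (9.94 to 10.07). The triangles of 18 enzymes lie to the right of all circles of the same gene, and those of PDC6 lie to the left.

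Of all members, the fermentation genes PDC1 and ADH1 showed the widest split. PDC1, the main pyruvate decarboxylase gene (YLR044C), measured 11.90 and 9.06 in scc2-4, 12.19 and 9.58 in sth1-3, 8.93 and 9.07 in the 37C wild type and 11.89 at 25C. ADH1, the alcohol dehydrogenase that makes ethanol (YOL086C), measured 12.34 and 9.04 in scc2-4, 12.10 and 9.95 in sth1-3, 8.81 and 9.10 in the 37C wild type and 11.83 at 25C. The 3-array set mean exceeded the 4-array set mean by 2.84 for PDC1 and by 2.87 for ADH1. PDC5, a pyruvate decarboxylase gene that can replace PDC1, split less widely, by 1.04. PDC6, the minor member of that family, ran the other way, with 9.66 and 10.08 in scc2-4, 9.00 and 9.87 in sth1-3, 10.19 and 10.14 in the 37C wild type and 9.15 at 25C. The mitochondrial alcohol dehydrogenase gene ADH3, the minor genes ADH4 and ADH5, the acetaldehyde dehydrogenase gene ALD6, and GPD1 and GPD2 of glycerol synthesis were not above background on any array. Their levels ran from 7.89 to 8.94 for ADH3, 8.58 to 9.18 for ADH4, 7.99 to 9.44 for ADH5, 8.37 to 9.26 for ALD6 and 8.22 to 9.15 for GPD1. GPD2 measured 9.50 and 9.23 in scc2-4, 8.46 and 8.87 in sth1-3, 8.97 and 8.96 in the 37C wild type and 8.50 at 25C. It was highest on the scc2-4 arrays in either array set.

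TDH1, a minor glyceraldehyde-3-phosphate dehydrogenase gene, measured 10.38 and 9.16 in scc2-4, 10.34 and 9.31 in sth1-3, 8.91 and 9.43 in the 37C wild type and 10.43 at 25C. The array carries further control probe sets for TDH1, which read the same gene at its 5' end, middle and 3' end and were not used in the comparisons. The 3' set measured 10.16 and 8.09 in scc2-4, 9.85 and 8.40 in sth1-3, 7.98 and 8.53 in the 37C wild type and 10.12 at 25C, and split by array set like the TDH1 gene probe set. The 5' set split too, at 8.32 to 9.16 on the 3-array set and 6.90 to 7.98 on the 4-array set, but was above background on no array. In the middle set, also above background on no array, the sets were close but did not overlap, at 8.83 to 9.05 against 8.03 to 8.80. A middle set that the array design marks as shared between transcripts measured 12.42 and 8.77 in scc2-4, 12.65 and 9.94 in sth1-3, 8.20 and 8.94 in the 37C wild type and 12.37 at 25C. The split was thus present at both ends of TDH1, at the 5' end only in signals below background, and differed in size between probe sets of this gene. The 3' set exceeded the 5' set by 1.01 to 1.69 on 6 arrays and by 0.42 on sth1-3 replicate 2. The 5' set was below background throughout, and the 3' set on all arrays but the wild type 25C array and scc2-4 replicate 1.

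**Figure D2:**
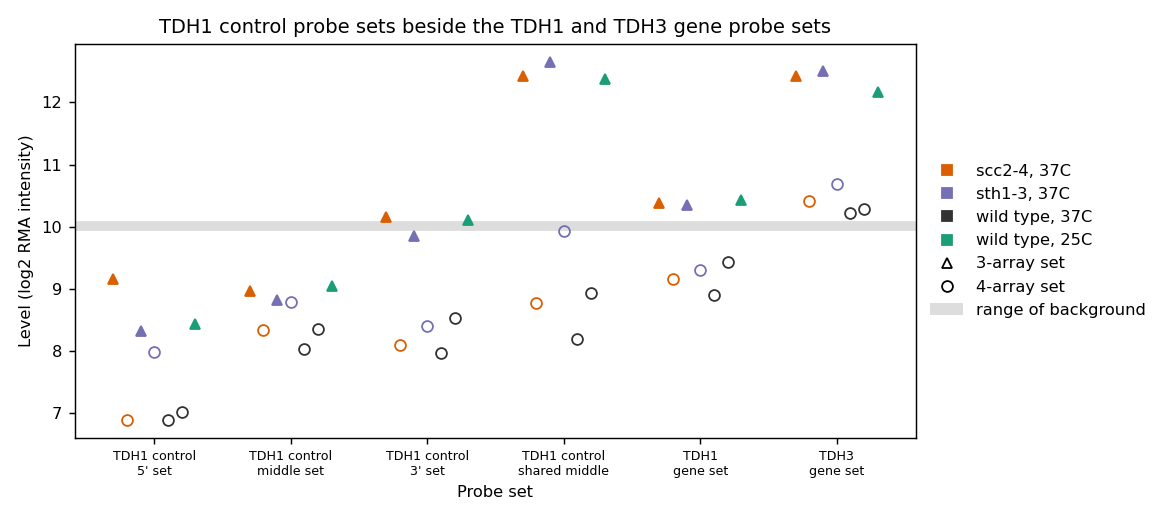
Log2 RMA intensity of the TDH1 control probe sets, and of the TDH1 and TDH3 gene probe sets, on the 7 arrays. Colours give strain and temperature, triangles the 3-array set, circles the 4-array set and the grey band the background. The shared middle set spans 8.20 to 12.65, whereas the unshared middle set spans 8.03 to 9.05.

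The hexose transporter genes gave little signal, as did most genes. Of the 14 transporters and sensors, 10 were above background on no array, against 77.4% of all genes, 2 (HXT3 and HXT13) on 1 array each, HXT9 on 3 and SNF3 on all 7. In 5 of 14, namely HXT1, HXT2, HXT3, HXT4 and HXT8, every array of the 3-array set lay above the 4-array set, and in HXT9 and RGT2 every one lay below. The shares of all genes were 21.6% for the higher and 14.0% for the lower pattern.

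HXT1 and HXT3 encode low-affinity carriers used at high glucose. HXT3 (YDR345C) measured 9.74 and 8.12 in scc2-4, 10.64 and 8.67 in sth1-3, 8.06 and 7.96 in the 37C wild type and 9.89 at 25C, and was above background only on sth1-3 replicate 1. HXT1 measured 8.76 and 7.89 in scc2-4, 9.06 and 8.47 in sth1-3, 8.03 and 7.83 in the 37C wild type and 8.59 at 25C. HXT2, a carrier of higher affinity, measured 8.76 and 7.03 in scc2-4, 9.10 and 7.93 in sth1-3, 7.24 and 7.40 in the 37C wild type and 8.92 at 25C. In these genes, both sth1-3 arrays lay above both wild type 37C arrays, and each sth1-3 array lay above the scc2-4 array of its own set. HXT4 had the same order between the mutants within each set (7.38 and 6.42 in scc2-4, 7.55 and 7.04 in sth1-3), and its sth1-3 arrays overlapped wild type at 37C (6.49 and 7.04).

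HXT7 encodes a high-affinity carrier and is nearly identical to HXT6, and its probe set is marked as shared, so its values can belong to either gene. It measured 8.79 and 8.03 in scc2-4, 8.29 and 8.35 in sth1-3, 7.62 and 7.50 in the 37C wild type and 9.22 at 25C. All 4 mutant arrays lay above the wild type 37C arrays and below the 25C array. HXT5, a carrier of slowly growing cells, lay at 6.52 to 7.59, HXT8 lay at 8.65 to 9.82, and HXT10, HXT11 and HXT14, which have little known role in glucose uptake, were not above background either (8.55 to 9.08, 5.27 to 5.54 and 6.19 to 7.68).

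HXT9 and HXT13 each had more than 1 probe set. The brighter HXT9 set measured 8.86 and 10.44 in scc2-4, 8.45 and 10.06 in sth1-3, 10.18 and 9.61 in the 37C wild type and 9.05 at 25C. The other HXT9 set, marked as shared, gave 9.37 and 9.05 in scc2-4, 9.25 and 9.34 in sth1-3, 8.68 and 9.06 in the 37C wild type and 9.45 at 25C. The probe sets of HXT9 therefore ran in opposite directions between the array sets, and its values are uncertain. The sets of HXT13 ordered the replicates alike within scc2-4, sth1-3 and the 37C wild type. They differed most on sth1-3 replicate 1, at 9.07 in the brighter and 8.29 in the other. The brighter was above background only at 25C (10.08).

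SNF3 (YDL194W) encodes the sensor of low glucose. It measured 10.08 and 10.33 in scc2-4, 10.90 and 10.39 in sth1-3, 10.68 and 10.70 in the 37C wild type and 10.38 at 25C, so that both scc2-4 arrays lay below all others. RGT2 (YDL138W), the sensor of high glucose, was not above background. It measured 7.05 and 8.41 in scc2-4, 6.83 and 7.99 in sth1-3, 8.43 and 8.83 in the 37C wild type and 7.24 at 25C, and all 4 mutant arrays lay below the wild type 37C arrays.

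**Figure D3:**
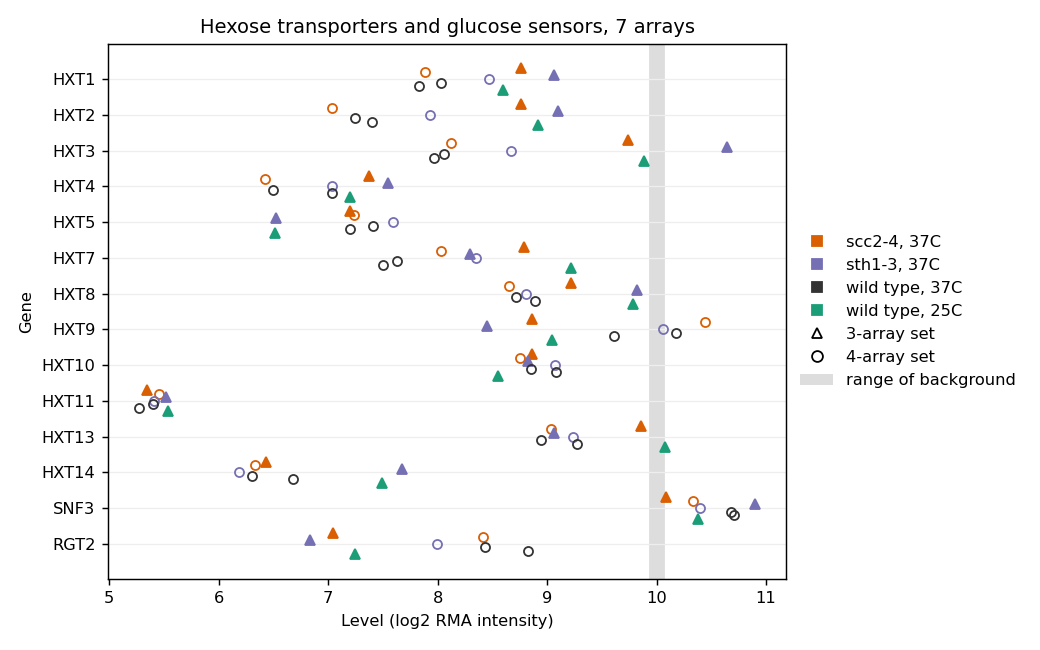
Levels of the 14 hexose transporter and glucose sensor genes as log2 RMA intensity, 1 row per gene and 1 point per array, with colours, symbols and the background band as in the plot of the enzymes. SNF3 lies above the background on all 7 arrays and 10 genes lie below it on every array.

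The split between the array sets also ran through the replicates of each mutant. Replicate 1 exceeded replicate 2 by more than 1 in both mutants in 11 of 26 enzymes and 2 of 14 transporters and sensors, against 4.5% of all genes. The enzymes were HXK2, FBA1, TDH1, TDH3, PGK1, GPM1, ENO1, ENO2, CDC19, PDC1 and ADH1, and the transporters were HXT2 and HXT3. Replicate 1 was lower by more than 1 in both mutants in HXT9 and RGT2 and in no enzyme, against 1.82% of all genes. Set against the mean of wild type at 37C, the median enzyme lay at 1.19 on scc2-4 replicate 1 and 0.089 on replicate 2. It lay at 1.05 and 0.20 on the sth1-3 arrays and at 1.10 on the wild type 25C array. The corresponding medians of the transporters and sensors were 0.21 and -0.11 in scc2-4, 0.47 and 0.14 in sth1-3 and 0.55 at 25C. Over all genes the medians lay between -0.085 and 0.17.

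**Figure D4:**
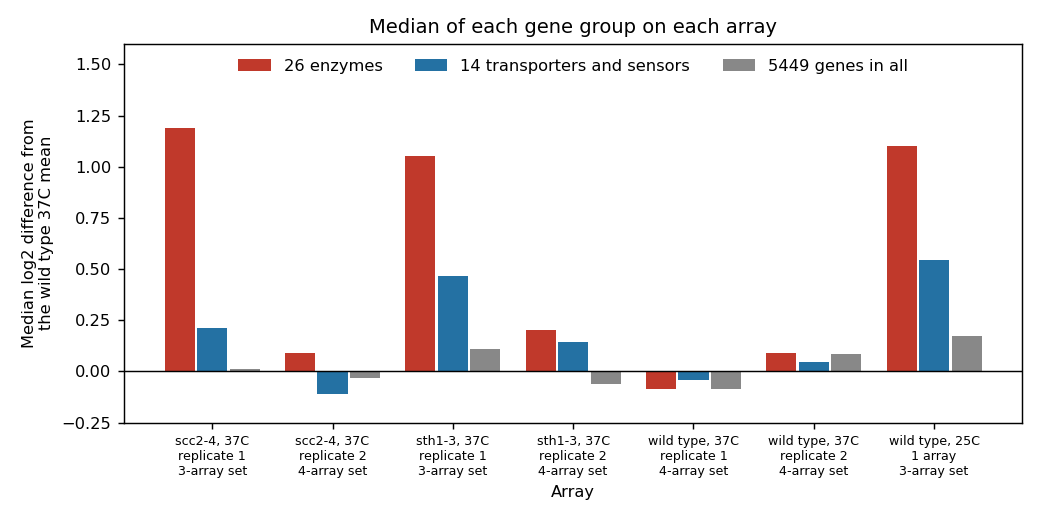
Median log2 difference from the wild type 37C mean on each array, for the 26 enzymes, the 14 transporters and sensors and all 5449 genes. Each bar is 1 array and gene group. The enzyme bars of the 3-array set stand at 1.05 to 1.19 and those of the 4-array set at -0.088 to 0.20.

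In scc2-4 against wild type at 37C, which asks for transcripts that depend on the cohesin loader, enzyme genes measured higher on average, by an amount that rested on replicate 1. The median log2 change was 0.64 over the 26 enzymes and 0.099 over the 14 transporters and sensors, beside -0.0051 over all genes. Of the enzymes 23 had a change above 0, against 49.5% of all genes, and of the transporters 8 did. The change was at least 1 in 8 enzymes and no transporter, against 2.04% of all genes, and -1 or lower in no member, against 0.569%. The scc2-4 arrays did not overlap with wild type, and were higher, in 7 enzymes (TPI1, TDH3, ENO1, ENO2, ADH3, ALD6 and GPD2) and in HXT3 and HXT7, against 15.0% of all genes. They were lower in PDC6, SNF3 and RGT2, against 14.1%. Of these genes, ADH3, ALD6, GPD2, HXT7 and RGT2 were above background on no array, and HXT3 on none of the arrays compared.

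None of the 40 genes passed the test, as none of all genes did (0.0%, adjusted p = 0.998 for every member, limma). ENO1 and HXT7, 2 members, had an unadjusted p under 0.05, against 1.25% of all genes. ENO1 averaged 10.01 ± 1.62 in scc2-4 and 8.22 ± 0.46 in wild type at 37C (SD, n = 2 each), a log2 change of 1.79 ± 0.77 (SE). ADH1 averaged 10.69 ± 2.33 and 8.95 ± 0.21, a log2 change of 1.74 ± 1.02 and at least 1.59-fold. FBA1 (10.40 ± 1.55 against 8.78 ± 1.07, at least 1.30-fold) and PDC1 (10.48 ± 2.01 against 9.00 ± 0.10, at least 1.37-fold) had similar changes, of 1.62 and 1.48. ENO2 was 2.38-fold higher (11.27 ± 1.45 against 10.02 ± 0.05). On scc2-4 replicate 2 ENO1, ADH1, FBA1 and PDC1 were not above background, so these bounds rest on replicate 1. Without replicate 1 the log2 change of ENO2 was 0.22, and without replicate 2 it was 2.28.

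Within the 4-array set, which holds 1 scc2-4 array and both wild type 37C arrays, the difference was small. The median enzyme lay 0.089 above the wild type mean on scc2-4 replicate 2, and the median transporter or sensor lay at -0.11. This array exceeded both wild type arrays in 9 enzymes and 4 transporters or sensors, against 26.9% of all genes, and lay below both in 4 and 6, against 26.8%. With the array set as a term in the model the medians were 0.22 and -0.051, and no member passed the test (0.128% of all genes did). SNF3, 1.40-fold lower in scc2-4 (10.20 ± 0.17 against 10.69 ± 0.01, log2 change -0.49 ± 0.33 SE), lay lower on either scc2-4 array. HXT9, at -0.24 ± 0.65, had overlapping groups.

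In sth1-3 against wild type at 37C, the same comparison for the RSC ATPase, enzyme genes again measured higher on average, and replicate 1 lay further from wild type than replicate 2. This comparison and that of scc2-4 share the wild type 37C arrays. The median log2 change was 0.69 over the enzymes and 0.28 over the transporters and sensors, beside 0.030 over all genes. Of the enzymes 22 had a change above 0 and of the transporters and sensors 9 did, against 53.0% of all genes. The change was at least 1 in 9 enzymes and 2 transporters, against 4.22% of all genes, and -1 or lower in 1 member, RGT2, against 1.8%. Both sth1-3 arrays lay above both wild type 37C arrays in 11 enzymes and 5 transporters, against 18.0% of all genes. The enzymes were TPI1, TDH3, PGK1, GPM1, ENO1, ENO2, PDC1, ADH1, ADH3, ADH5 and ALD6, and the transporters were HXT1, HXT2, HXT3, HXT7 and HXT11. They lay below in PDC6, GPD2 and RGT2, against 18.8%. Of these genes, ADH3, ADH5, ALD6, GPD2, HXT1, HXT2, HXT7, HXT11 and RGT2 were above background on no array.

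No member passed the test here either (0.0% of all genes, lowest adjusted p = 0.824, limma). ENO1 and HXT3, 2 members, had an unadjusted p under 0.05, against 3.78% of all genes. ADH1 averaged 11.02 ± 1.53 in sth1-3, against 8.95 ± 0.21 in wild type at 37C (SD, n = 2 each), a log2 change of 2.07 ± 1.02 (SE) and at least 2.00-fold. On sth1-3 replicate 2 ADH1, ENO1, PDC1 and FBA1 were not above background, and their bounds rest on replicate 1. ENO1 averaged 10.21 ± 1.16 and 8.22 ± 0.46, a log2 change of 1.99 ± 0.77 and at least 1.14-fold. PDC1 averaged 10.89 ± 1.85 against 9.00 ± 0.10 (at least 1.82-fold), and FBA1 averaged 10.45 ± 1.42 against 8.78 ± 1.07 (at least 1.35-fold). ENO2 was 2.68-fold higher, at 11.44 ± 0.98 against 10.02 ± 0.05. Its log2 change was 0.73 without sth1-3 replicate 1 and 2.12 without replicate 2. HXT3, the low-affinity carrier, averaged 9.66 ± 1.40 against 8.01 ± 0.07, a log2 change of 1.64 ± 0.70. HXT9 (-0.64 ± 0.65, adjusted p = 0.837) and SNF3 (-0.047 ± 0.33, adjusted p = 0.985, limma) had overlapping groups.

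Within the 4-array set, sth1-3 replicate 2 lay above both wild type 37C arrays in 13 of 26 enzymes and 6 of 14 transporters and sensors, against 27.6% of all genes. It lay below both in 3 enzymes and 3 transporters or sensors, against 36.5%. The median difference from the wild type mean was 0.20 for enzymes and 0.14 for transporters and sensors, beside -0.061 for all genes. Only 3 of the 26 enzymes were above background on this array, so most of these positions compare signals near background. The members above background there were ENO2, 0.73 above the wild type mean, TDH3, 0.44 above it, HXT9, 0.16 above it, SNF3, at -0.30, and GLK1, whose wild type arrays were 1.76 apart. These are differences of 1 array and have no replicate within the set. The same array had the largest 25S difference between 3' and 5' of the 4-array set (0.69, against 0.30 to 0.32 on the other arrays of the set). It also had the lowest 5.8S ribosomal RNA level of the set (8.92, against 12.9 to 13.0). That level was closer to those of the 3-array set (7.50 to 8.40). The part of these differences in the result was not tested. With the array set as a term the medians were 0.12 for enzymes and 0.12 for transporters and sensors, and no member passed the test (0.184% of all genes did).

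**Figure D5:**
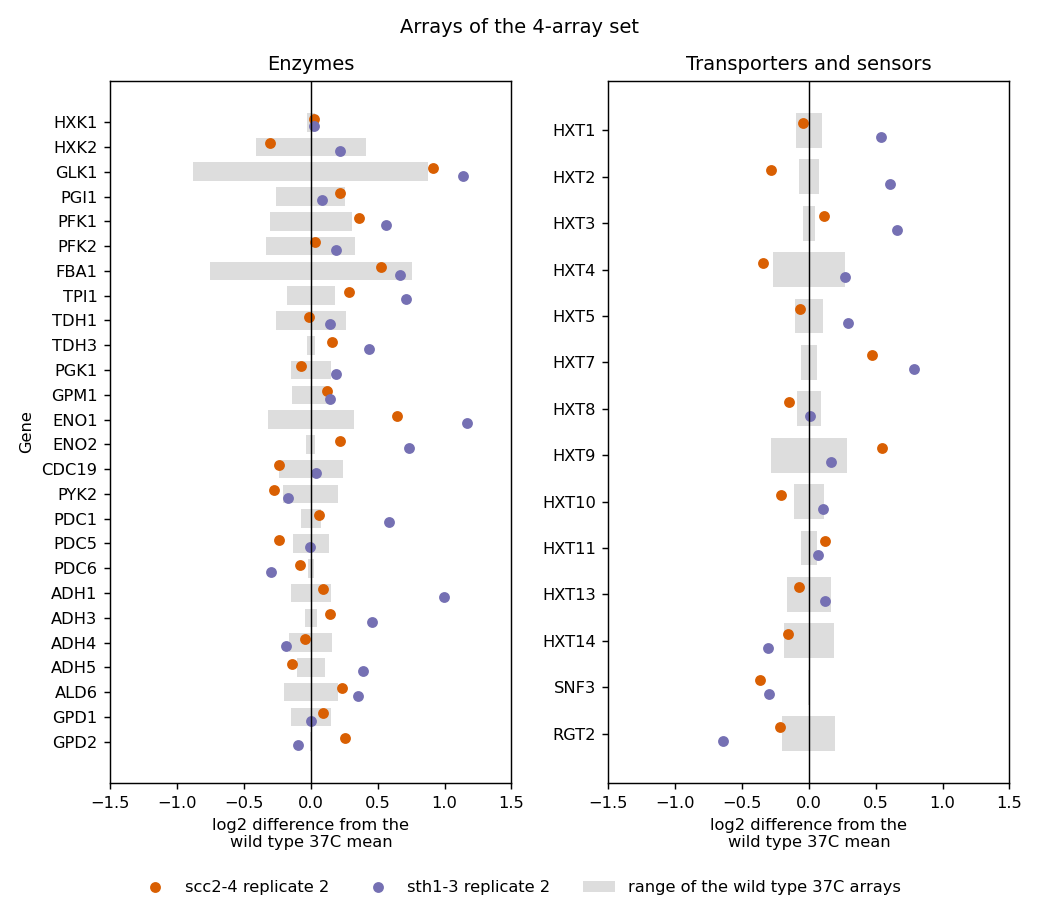
Log2 difference from the wild type 37C mean for every member, on the arrays of the 4-array set only. Orange points are scc2-4 replicate 2, purple points are sth1-3 replicate 2 and grey bars are the range of the wild type 37C arrays. The sth1-3 array lies right of the bar in 13 enzymes and 6 transporters or sensors, and the scc2-4 array in 9 and 4.

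Set directly against scc2-4, sth1-3 gave no difference in enzymes that held in both array sets for most genes. The median log2 difference, sth1-3 minus scc2-4, was 0.056 for the enzymes and 0.26 for the transporters and sensors, beside 0.021 for all genes. The difference was above 0 in 14 enzymes and 9 transporters or sensors, against 52.8% of all genes. Between the arrays of the 3-array set the enzyme median was -0.22, and between those of the 4-array set it was 0.21. The transporters and sensors had medians of 0.17 and 0.25, beside 0.081 and -0.032 for all genes. The sth1-3 array lay higher in both sets in 6 of 14 transporters and sensors (HXT1, HXT2, HXT3, HXT4, HXT8 and SNF3) and in 6 of 26 enzymes, against 23.9% of all genes. It lay lower in both sets in PGI1, PDC6, GPD1 and GPD2, 4 enzymes, and in HXT9 and RGT2, 2 transporters or sensors, against 22.9%. HXT1, HXT2, HXT4 and HXT8 were above background on no array and HXT3 on 1, so these orders compare signals near background. GPD1 and GPD2, the first enzymes of glycerol synthesis, had both sth1-3 arrays below both scc2-4 arrays, a pattern of 9.62% of all genes, and neither gene was above background.

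No gene passed the test of this difference (0.0%, adjusted p = 1.0, limma), and no member was under an unadjusted p of 0.05, against 0.385% of all genes. The largest differences above background were in HXT3 (0.73 ± 0.70 SE), PFK2 (0.60 ± 0.50, 1.52-fold higher), SNF3 (0.44 ± 0.33, 1.36-fold higher), PDC6 (-0.44 ± 0.38), PDC1 (0.41 ± 1.00), HXT9 (-0.40 ± 0.65), HXK2 (0.36 ± 0.74) and ADH1 (0.33 ± 1.02). Of these, SNF3 had both sth1-3 arrays above both scc2-4 arrays, a pattern of 8.44% of all genes. Between the mutants, HXT3 and HXK2 were above background only on sth1-3 replicate 1, and PDC6 only on scc2-4 replicate 2. The bound on the fold of these genes lay under 1.

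Most members measured lower in the wild type at 37C than at 25C. The wild type 25C array belongs to the 3-array set and both 37C arrays to the 4-array set, so temperature and array set cannot be told apart. The median log2 difference was -1.10 for the enzymes and -0.55 for the transporters and sensors, beside -0.17 for all genes. Of the enzymes 20 were lower on both 37C arrays than at 25C, and of the transporters and sensors 9 were, against 50.1% of all genes. PFK1, PDC6 and GPD2 were higher on both, as were HXT5, HXT9, HXT10, SNF3 and RGT2, against 31.1%. The difference was above 0 in 3 enzymes and 5 transporters or sensors, against 39.9% of all genes. It was -1 or lower in 13 enzymes and 3 transporters, against 13.3% of all genes, and at least 1 in 1 enzyme and 1 sensor, against 6.53%.

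No member passed the test in the fit over all groups (0.0% of all genes, lowest adjusted p = 0.449, limma). Unadjusted p was under 0.05 for TPI1, ENO1, PDC1, ADH1 and HXT7, 5 members, against 10.2% of all genes. PDC1 averaged 9.00 ± 0.10 at 37C (SD, n = 2) against 11.89 on the 25C array, a log2 difference of -2.89 ± 1.22 (SE) and at least 3.65-fold lower. This SE pools the spread of all groups. It takes in the gap between the array sets within each mutant (SD 2.01 in scc2-4 and 1.85 in sth1-3). ADH1 averaged 8.95 ± 0.21 against 11.83, at least 3.50-fold lower. FBA1 averaged 8.78 ± 1.07 against 11.12 (at least 2.14-fold lower), GPM1 9.14 ± 0.20 against 11.10 (at least 2.10-fold lower) and ENO1 8.22 ± 0.46 against 10.63 (at least 1.52-fold lower). HXT13 averaged 9.11 ± 0.23 against 10.08. HXT9 (0.85 ± 0.79, adjusted p = 0.622) and SNF3 (0.31 ± 0.41, adjusted p = 0.721, limma) were higher at 37C. When the fit held only the wild type arrays, which leaves 1 residual degree of freedom and gives all genes a common spread, 17 of 40 members passed, 16 lower and RGT2 higher, against 16.7% of all genes. With the array set as a term, estimated from the mutants, the medians were -0.11 for either gene group, and no member passed (0.0734% of all genes did).

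Genes of neighbouring pathways, taken from fixed lists, were read in the same way, and none passed the test in any comparison. Of 21 genes of glucose sensing and repression, 8 were higher and 13 lower in scc2-4 than in wild type at 37C (median -0.12), and 6 were higher and 15 lower in sth1-3 (median -0.31). Over all genes, 49.5% were higher in scc2-4 and 53.0% in sth1-3. Of the 21 listed genes 15 were above background on no array, against 77.4% of all genes. GRR1, the ubiquitin ligase subunit through which the sensors switch on the HXT genes, measured 9.75 and 10.55 in scc2-4, 9.02 and 9.60 in sth1-3, 10.52 and 10.43 in the 37C wild type and 9.69 at 25C. It was at least 1.38-fold lower in sth1-3 than in wild type at 37C (log2 change -1.17 ± 0.39 SE, adjusted p = 0.824, limma), and both sth1-3 arrays lay below all others. GCR1, an activator of glycolytic genes, measured 10.32 and 9.07 in scc2-4, 8.85 and 9.21 in sth1-3, 8.64 and 9.12 in the 37C wild type and 10.18 at 25C. It did not share the high level of the enzymes on sth1-3 replicate 1. The other 6 regulators of glycolytic genes brought the list's median to -0.0072 in scc2-4 and -0.18 in sth1-3, and 5 genes of the list were above background on no array.

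Among branches off glycolysis, 9 of 11 pentose phosphate genes were higher in sth1-3 than in wild type at 37C (median 0.21) and 7 of 11 in scc2-4 (median 0.11). The shares of all genes were 53.0% in sth1-3 and 49.5% in scc2-4. Of these 11 genes 9 were above background on no array, against 77.4% of all genes. GND1, which makes ribulose phosphate in that pathway, measured 9.36 and 8.28 in scc2-4, 10.22 and 8.73 in sth1-3, 8.12 and 8.65 in the 37C wild type and 9.67 at 25C. Of 10 further acetaldehyde, acetate and alcohol genes, 6 were higher in scc2-4 (median 0.41) and 8 in sth1-3 (median 0.32). Of these 10 genes 9 were above background on no array. ALD4, the mitochondrial aldehyde dehydrogenase, measured 10.80 and 10.06 in scc2-4, 10.56 and 10.44 in sth1-3, 9.94 and 9.39 in the 37C wild type and 10.31 at 25C. All 4 mutant arrays lay above the wild type 37C arrays, at least 1.32-fold higher in scc2-4 and 1.39-fold in sth1-3. The list medians in scc2-4 and sth1-3 were 0.064 and 0.031 for 16 trehalose and glycogen genes, 0.068 and 0.078 for 8 glycerol genes, and 0.069 and -0.032 for 8 genes of pyruvate entry to mitochondria. They were 0.17 and 0.24 for 7 genes of fructose-2,6-bisphosphate and gluconeogenesis, 0.20 and -0.011 for 7 other sugar transporters, and -0.18 and 0.035 for 5 galactose genes. None of the gluconeogenesis or galactose genes was above background. Above background on no array were also 9 of the trehalose and glycogen genes, 4 of the glycerol genes, 5 of the pyruvate entry genes and 5 of the other sugar transporters.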

How the data were processed

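RNA from 7 samples was hybridised to Affymetrix arrays that carry probe sets for Saccharomyces cerevisiae and Schizosaccharomyces pombe. The authors deposited log2 intensities, 1 per probe set and array, made with RMA in the affy package per the submitters' processing notes (versions not given in the sources used here). The deposited values ran from 4.97 to 14.73 and were used without further normalization. No array duplicated another. Probes were named from the platform annotation: of 10928 probe sets 7244 had 1 symbol, 1 had several and 3683 had none, and 12 symbols were updated. S. cerevisiae genes were kept, with the brightest probe set of each.

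One mean per group was fitted to 5449 genes over all 7 arrays with limma 3.58.1 (lmFit and eBayes, R 4.3.3), which leaves 3 residual degrees of freedom. The p-values were adjusted by Benjamini-Hochberg over all genes at a threshold of 0.05. Each mutant has 1 array in either array set, so the SE and p-values of this fit take in the difference between the sets. The procedure was run on simulated data that held no difference between array sets, so that run cannot show how it behaves with the split found here. Bounds on fold changes set each array of a dim group at the higher of its background and its own value. Log2 changes are given for the 5 enzymes and 3 transporters or sensors with the largest absolute change among members above background on at least 1 array of the groups compared, and for neighbouring lists for the 2 such genes with the largest change. Members named for an unadjusted p or for groups that did not overlap were chosen after their values were seen. The members and lists were chosen with earlier results of these data known. Depth of arrays is limited by their number. Alternatives were another normalization and centring, a filter on dim genes, other probe set rules, the array set as a term, the larger array set alone, the replicate block, and leaving out each replicate. Sequences and coordinates were not used here.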

Additional observations from a re-analysis of the deposited data

How the results depend on the processing

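No member passed the test under any alternative except in wild type at 37C against 25C when the fit held only those arrays; there the count of genes was 911, and FBA1, GPM1, ENO1, PDC1 and ADH1 passed (log2 values as in the fit over all groups). The genes called otherwise numbered, for scc2-4 against wild type at 37C, 1 with the replicate block, 7 with the array set as a term, 6 in the larger array set and 0 to 1 when a replicate was left out. For sth1-3 against wild type at 37C they numbered 1, 10 and 13 in the same 3 settings, for sth1-3 against scc2-4 1 in the larger set, and for the temperatures 4 with the set term and 0 to 1 when a replicate was left out. The median of enzymes in sth1-3 was 0.12 with the set term and 0.20 in the larger set (0.20 to 1.05 with a replicate left out). The median of transporters and sensors in scc2-4 was -0.37 with the dim filter and -0.11 in the larger set. With a replicate left out it ran from -0.11 to 0.21. In sth1-3 it was -0.34 with the dim filter (0.14 to 0.47 with a replicate left out). The dim filter kept only HXT9 and SNF3 of this group. Every dim filter median of transporters and sensors therefore rests on these genes, and the probe sets of HXT9 disagreed. HXT9 reversed in scc2-4, to 0.049 with the mean of probe sets, 0.55 with the set term and 0.55 in the larger set (-1.03 to 0.55), and in sth1-3 to 0.16 with the set term and 0.16 in the larger set (-1.44 to 0.16). SNF3 in sth1-3 reversed to 0.035 with centring on S. pombe probe sets (-0.30 to 0.21 with a replicate left out). For sth1-3 against scc2-4 the median of transporters was 0.022 with the dim filter. Both mutants have an array in either set, so leaving 1 out unbalances that comparison and brings in the difference between the sets, and with the set term the enzyme median stayed at 0.056. With a replicate left out, it ran from -0.77 to 0.68, HXK2 from -0.64 to 1.36, PFK2 from -0.086 to 1.29, PDC1 from -1.02 to 1.83, ADH1 from -1.32 to 1.98, HXT3 from -0.26 to 1.71 and HXT9 from -1.20 to 0.41. Between the temperatures the enzyme median was -0.81 with the replicate block, -1.81 with the dim filter and -0.92 with centring on S. cerevisiae genes. It was -0.11 with the set term, and -1.25 to -1.10 with a replicate left out. Of the enzymes that the dim filter kept, 11 were above background on the 3-array set only, which holds the 25C array. That filter favours genes high at 25C, so its value of -1.81 is no independent check. The median of transporters was -0.33 with the block, 0.58 with the dim filter, -0.40 with quantile normalization, -0.37 and -0.65 with centring on S. cerevisiae and S. pombe, -0.43 without shared probe sets and -0.11 with the set term (-0.63 to -0.51), and HXT9 was -0.74 with the set term. The larger array set holds no 25C array and gave no value for the temperatures. Replicate numbers did not pair the wild type with the mutants. Deviations of same-numbered arrays correlated at -0.20 for wild type and scc2-4 and -0.36 for wild type and sth1-3. They correlated at 0.55 for scc2-4 and sth1-3, whose same-numbered arrays lie in the same array set. Where no setting's own construction gives it, the cause was not tested. The number of arrays and a signal near background for most carriers limit every comparison.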
